A study of Mus musculus with 8 samples.

Results

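The Neurosecretory cluster is a group of 375 neurons among the 35672 single cells profiled from the mouse paraventricular nucleus of the hypothalamus (PVN). Its members were chosen by the authors' cluster annotation, in which it is 1 of 33 clusters. In the coarser annotation of 17 cell types it has no label of its own. All 375 cells carry the type label Neurons_mixed, together with the 1710 cells of the cluster Neurons_mixed, and none carries the label AVP. The table used here gives each cell's library, labels, depth, mitochondrial share and 3 scores. Levels of Avp and Oxt, genes that mark part of the neurosecretory neurons, were not analysed here. The name is therefore the annotation's and was not checked against markers.

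Neurosecretory neurons of the PVN release hormones into the blood rather than onto other neurons. Magnocellular cells make vasopressin (from Avp) or oxytocin (from Oxt) and send axons to the posterior pituitary, where both hormones enter the circulation. Parvocellular cells release corticotropin-releasing hormone, often with vasopressin, at the median eminence and so start the hormonal response to stress.

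The C57BL/6 mice were of both sexes and belonged to 2 cohorts. In the baseline cohort (10 weeks of age), unstressed controls were set against mice held under acute restraint (ARS) for 15 min. In the cohort named CMS (11 weeks of age), controls labelled as unstressed were set against mice that had 21 days of chronic mild stress followed by the same restraint. Tissue was taken 5 h after the restraint, dissociated with papain and made into 10x Genomics 3' v2 libraries. Each combination of sex, cohort and exposure was 1 library, 8 in all, with 3523 to 5777 cells and 9924892 to 15760435 UMIs (unique molecular identifiers, the counted RNA molecules). The number of animals behind a library is not stated, and p-values cover no more than the spread among these 8 libraries. Barcodes of 1452 cells (4.07%) occurred in more than 1 library. They included 20 Neurosecretory cells, and in none of these was the cell with the same barcode in another library from the Neurosecretory cluster. Without all such cells the Neurosecretory share ran from 0.30% to 2.50% over libraries, against 0.313% to 2.58% with them.

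The Neurosecretory cells were shallow. Their median depth was 1218 UMIs, with 80% of cells between 633 and 2717 and extremes of 501 and 7382. As the mean of the library medians, depth was 1382 ± 410 UMIs (SD, n = 8 libraries), the eighth lowest of the 33 clusters, just above AVP_2 and just below Endothelial_1. AVP_1, the main cluster of the vasopressin neurons, had 6486 ± 433 UMIs, 4.86-fold more, and stood higher in 8 of 8 libraries without any overlap. AVP_2, the small shallow cluster of the same type, had 1378 UMIs over the 7 libraries with at least 5 of its cells, and Neurons_mixed had 1203. Neurosecretory cells were deeper than AVP_2 in 4 of 7 libraries and deeper than Neurons_mixed in 4 of 8, so neither order held across libraries. The 33 clusters ran from 755 UMIs in Astrocytes_2 to 7609 in GABA_2. The clusters were made from the RNA of these same cells, so differences between clusters are given as descriptions, without a test.

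Library by library, the median depth of Neurosecretory cells was 1381 UMIs in the female baseline control, 1046 in the female baseline ARS, 1442 in the male baseline control and 2126 in the male baseline ARS library. In the CMS cohort it was 1183 in the female control, 1830 in the female ARS, 1102 in the male control and 947 in the male ARS library. The 2 deepest libraries were ARS libraries, and so were the 2 shallowest. The male baseline ARS value rests on 12 cells. Library-wide medians ran from 1845 to 2565 UMIs, and in each of the 8 libraries the Neurosecretory median lay below that of all cells.

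**Figure D1:**
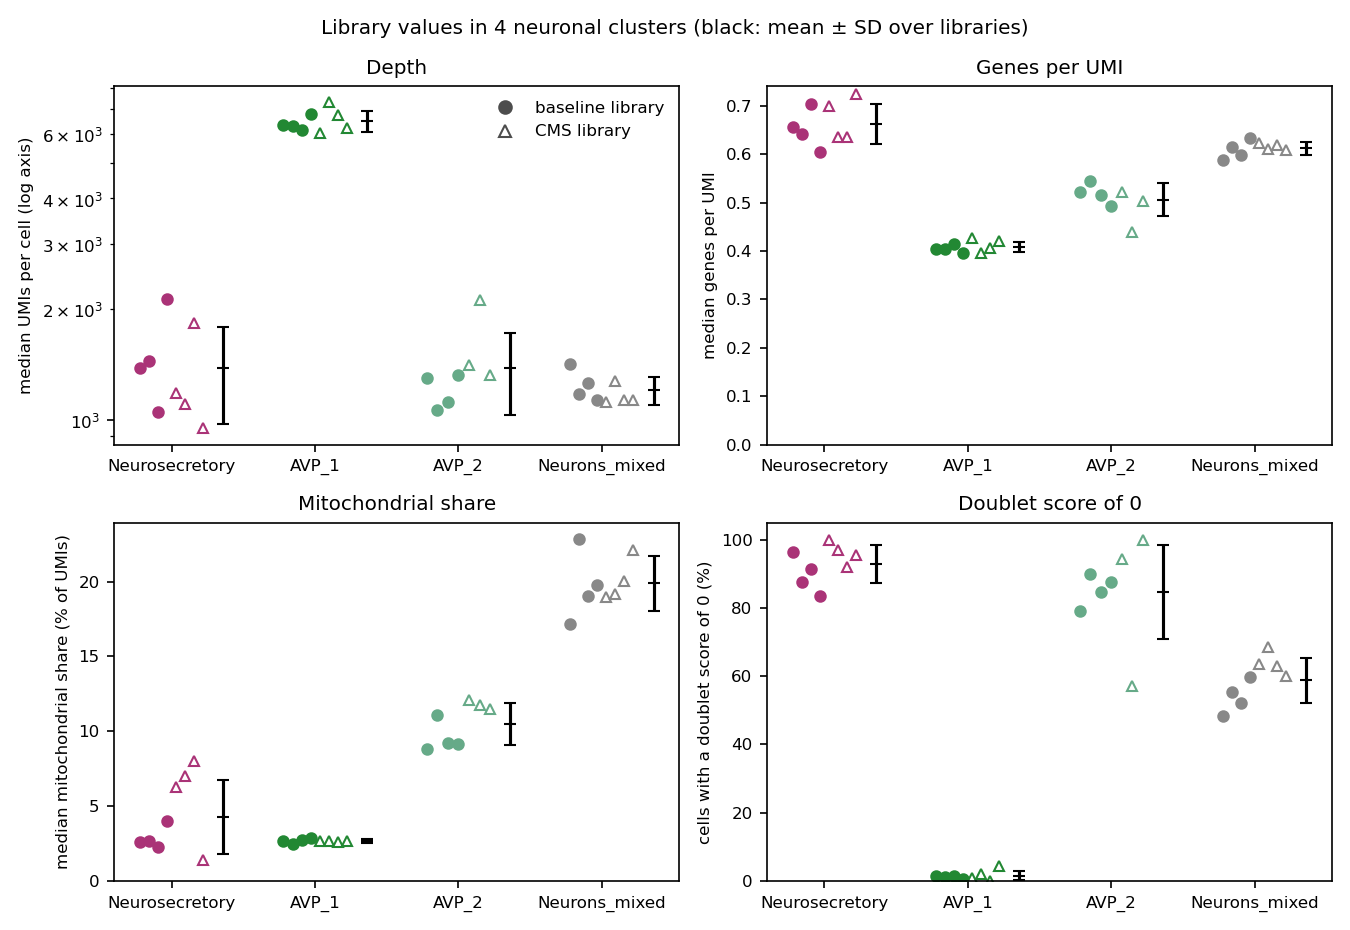
Library values in the Neurosecretory cluster and 3 other neuronal clusters: median UMIs per cell (log axis), median genes per UMI, median mitochondrial share in percent of UMIs, and the percent of cells with a doublet score of 0. Each symbol is 1 library with at least 5 cells (filled circles baseline, open triangles CMS), and the black bar is the mean ± SD over libraries. Neurosecretory cells are near AVP_2 and Neurons_mixed in mean depth, though not library by library. They lie above all 3 clusters in mean genes per UMI. In mitochondrial share they spread more widely between libraries, from 1.41% to 7.98%.

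For their depth, Neurosecretory cells held many different genes. Genes per UMI is the number of genes with at least 1 UMI divided by the UMIs of the cell. It is higher where RNA is spread over more genes, and it falls with depth in any cell. Neurosecretory cells had 0.663 ± 0.0416 genes per UMI, the second highest of the 33 clusters, between Ependymal_2 (0.676) and Endothelial_1 (0.630), and ranked from the first to the sixth place within the 8 libraries. AVP_1 had the lowest value of all clusters, 0.408. AVP_2, with a like mean depth, had 0.506 and stood lower in 7 of 7 libraries, while Neurons_mixed had 0.612 and stood lower in 7 of 8. By library, genes per UMI of Neurosecretory cells were lowest in the male baseline ARS library (0.604), which was also the deepest, and highest in the male CMS ARS library (0.725), the shallowest.

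Cells of like depth were compared in windows of UMIs, since counts could not be thinned. Of the 375 Neurosecretory cells, 145 had under 1000 UMIs, 139 had 1000 to under 2000, 86 had 2000 to under 4000 and 5 had at least 4000. Between 1000 and 2000 UMIs they had a median of 934 genes, against 824 in Neurons_mixed and 666 in AVP_2, with median depths of 1410, 1362 and 1345 UMIs. The Neurosecretory median was higher in 8 of 8 libraries against Neurons_mixed and in 5 of 5 against AVP_2. Between 2000 and 4000 UMIs it was 1376 genes against 1172 in Neurons_mixed (higher in 6 of 6 libraries), at median depths of 2480 and 2156 UMIs. Under 1000 UMIs it was 558 against 531 (higher in 4 of 7 libraries), at median depths of 775 and 803 UMIs, so the order of gene numbers did not hold across libraries there. Genes per UMI in that window were higher in 6 of 7 libraries. Between 2000 and 4000 UMIs, where Neurosecretory cells were deeper than Neurons_mixed, genes per UMI were higher in 5 of 6. AVP_1 could hardly be matched, because 783 of its 815 cells had at least 4000 UMIs.

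**Figure D2:**
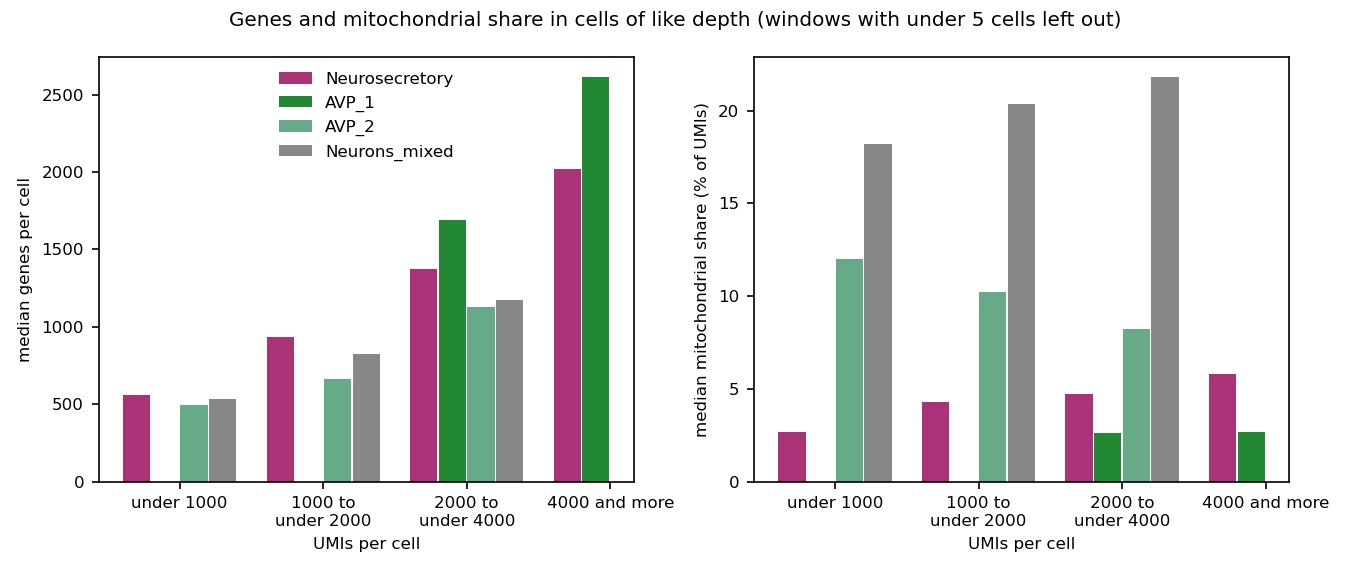
Median genes per cell (left) and median mitochondrial share in percent of UMIs (right) within windows of UMIs per cell, over the cells of all libraries, for 4 neuronal clusters. From 1000 to under 2000 UMIs, Neurosecretory cells had 934 genes and 4.28% mitochondrial UMIs, against 824 genes and 20.4% in Neurons_mixed and 666 genes and 10.2% in AVP_2; from 2000 to under 4000, AVP_1 cells were deeper than the others (median 3362 UMIs).

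The cluster was frequent at the high end of the whole series in this measure, but not at the low end. Of the 100 cells with the most genes per UMI, 34 were Neurosecretory (9.07% of the cluster), 22 were Neurons_mixed and 1 was AVP_2. The cluster made up 1.05% of all cells. Among the 100 cells with the fewest genes per UMI, 1 was Neurosecretory. The 34 Neurosecretory cells at the high end came from 5 libraries and had a median of 641 UMIs and a mitochondrial share of 1.25%. The highest value of the series, 0.863, was in a Neurosecretory cell, and so was the lowest, 0.170, in a cell with 3796 UMIs from 646 genes. Only 4 Neurosecretory cells, from 3 libraries, lay under 0.4.

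The mitochondrial share was low beside Neurons_mixed but not among the lowest of the series. As the mean of library medians it was 4.28% ± 2.48 in Neurosecretory cells, in place 22 of 33 counted from the lowest, next to Oligodendrocytes_1 (4.27%) and Ependymal_1 (4.53%). The order ran from Microglia_1 (1.20%) to Neurons_mixed (19.9%). Neurosecretory cells were lower than Neurons_mixed in 8 of 8 libraries, by 15.6 percentage points on average, and lower than AVP_2 (10.5%) in 7 of 7. They were higher than AVP_1 (2.67% ± 0.107) in 5 of 8 libraries. At like depth the order against Neurons_mixed held in all but 1 of the library comparisons: the Neurosecretory median was lower in 6 of 7 libraries under 1000 UMIs, in 8 of 8 between 1000 and 2000 and in 6 of 6 between 2000 and 4000.

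Within the cluster the mitochondrial share was spread widely. The quartiles were 1.30% and 8.25% around a median of 4.11%, and single cells ran from 0.0451% to 29.9%. In AVP_1 the quartiles were 2.20% and 3.22%. Of the 375 Neurosecretory cells, 128 (34.1%) had under 2% mitochondrial UMIs, 84 had 2% to under 5%, 126 had 5% to under 15% and 37 (9.87%) had at least 15%. In Neurons_mixed 7.49% of cells were under 2% and 68.0% had at least 15%. These class limits were set after the values were seen. Neurosecretory cells under 2% had a median of 1088 UMIs and 0.731 genes per UMI, and those with at least 15% had 863 UMIs and 0.627. Between 1000 and 2000 UMIs, the 51 cells under 2% had 0.71 genes per UMI and the 88 others 0.662.

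The library medians of the mitochondrial share fell into a pattern by cohort with 1 exception. In the baseline cohort they were 2.61% in the female control, 2.28% in the female ARS, 2.66% in the male control and 4.0% in the male ARS library. In the CMS cohort they were 6.29% in the female control, 7.98% in the female ARS and 7.02% in the male control library, but 1.41% in the male ARS library, the lowest of all 8. The mean was 5.68% ± 2.93 (SD, n = 4) in the CMS and 2.89% ± 0.763 in the baseline cohort, a difference of 2.79 percentage points (SE 1.57) that did not pass the limma test (adjusted p = 0.299). In this comparison limma called 6.06% of 33 clusters. With the male CMS ARS library left out, the CMS mean was 7.10% ± 0.849 (n = 3). The difference fitted with sex and exposure as terms was then 4.49 points (SE 0.451), which passed (limma adjusted p = 0.0177). Over all fits of this comparison limma called 0 to 3 clusters. The male CMS ARS library therefore decides whether a higher mitochondrial share in the CMS cohort is called, and it was singled out after its values were seen. AVP_1 cells kept a median of 2.50% to 2.85% in all 8 libraries. AVP_2 was 2.22 points higher in the CMS cohort, which did not pass (SE 0.60, limma adjusted p = 0.141). The AVP_2 value rests on 7 libraries, because the male CMS ARS library held only 2 of its cells. These are the libraries behind the Neurosecretory difference of 4.49 points, not that of 2.79. Oligodendrocytes_3 had a like pattern with the same exception. Its CMS medians were 17.4% in the female control, 17.3% in the female ARS and 13.9% in the male control library. In the male CMS ARS library it was 7.35%, and its baseline medians ran from 6.44% to 10.3%. Other clusters did not share the exception. In Neurons_mixed the male CMS ARS median, 22.1%, was the highest of the CMS cohort. In Ependymal_2 that library had 9.70%, within its other CMS medians (7.88% to 13.4%) and above its baseline medians (4.35% to 8.57%). Oligodendrocytes_3 and Ependymal_2 were chosen here after their values were seen.

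Doublet scores were 0 in nearly all Neurosecretory cells. The score was 0 in 353 of 375 cells, against 27.1% of all cells of the series. By library the percentage at 0 ran from 83.3% to 100%, with a mean of 92.9% ± 5.47 (n = 8), the third highest of 33 clusters after Microglia_3 (100%) and Ependymal_2 (97.7%). It was 1.55% in AVP_1, 58.9% in Neurons_mixed and 84.7% in AVP_2. Between 1000 and 2000 UMIs, 97.1% of Neurosecretory and 42.5% of Neurons_mixed cells were at 0. Under 1000 UMIs the percentages were 100% and 91.4%, so the gap was far smaller in the shallowest cells. The other 22 cells of the cluster had a median score of 3.02, 20 of them above 2, and a median of 3020 UMIs, against 1170 UMIs in the cells at 0.

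The scores for S phase and for G2/M, which rate genes of DNA replication and of mitosis, were near 0 on average. They take both signs, so a value near 0 does not mean that such RNA was absent. Their library means averaged 0.00814 ± 0.0206 for S and -0.00274 ± 0.00929 for G2/M. The S score was highest in the male baseline ARS library (0.0547, 12 cells). Over all libraries, single Neurosecretory cells scored up to 0.599 for S (90th percentile 0.0558). Which library held that cell is not given here, and its part in the mean over 12 cells was not tested. Above the level that marks the top 1% of all cells there were 5 of 375 Neurosecretory cells for S (1.33%, exact Clopper-Pearson 95% interval 0.434 to 3.08) and 6 for G2/M (1.60%, 0.589 to 3.45). For S the percentages were 1.56% in AVP_2 (2 of 128 cells, 0.190 to 5.53), 0.368% in AVP_1 and 0.292% in Neurons_mixed. For G2/M the percentages were 0.175% (0.0362 to 0.512) in Neurons_mixed, and 0 of 815 cells, which allows up to 0.368%, in AVP_1. In AVP_2 it was 0 of 128 cells, which allows up to 2.34%; both limits are 3 counts of the total, not exact intervals. These intervals and limits, and those below, cover counting error only.

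Neurosecretory cells made up 1.05% ± 0.703 (SD, n = 8) of a library's cells and 5.06% ± 2.45 of its neurons, which are the types GABA, Glut, AVP and Neurons_mixed. In the baseline cohort there were 53 of 5559 cells in the female control library (0.953%, exact 95% interval 0.715 to 1.25), 80 of 5777 in the female ARS (1.38%, 1.10 to 1.72), 16 of 3692 in the male control (0.433%, 0.248 to 0.703) and 12 of 3831 in the male ARS library (0.313%, 0.162 to 0.547). In the CMS cohort there were 40 of 4528 in the female control (0.883%, 0.632 to 1.20), 50 of 4981 in the female ARS (1.0%, 0.746 to 1.32), 33 of 3781 in the male control (0.873%, 0.602 to 1.22) and 91 of 3523 in the male ARS library (2.58%, 2.08 to 3.16). The male baseline libraries thus lay lowest, the female and the male CMS control libraries lay between, and the male CMS ARS library lay above all others. Among neurons the same libraries stood at the ends, from 1.88% in the male baseline ARS to 8.71% in the male CMS ARS library.

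**Figure D3:**
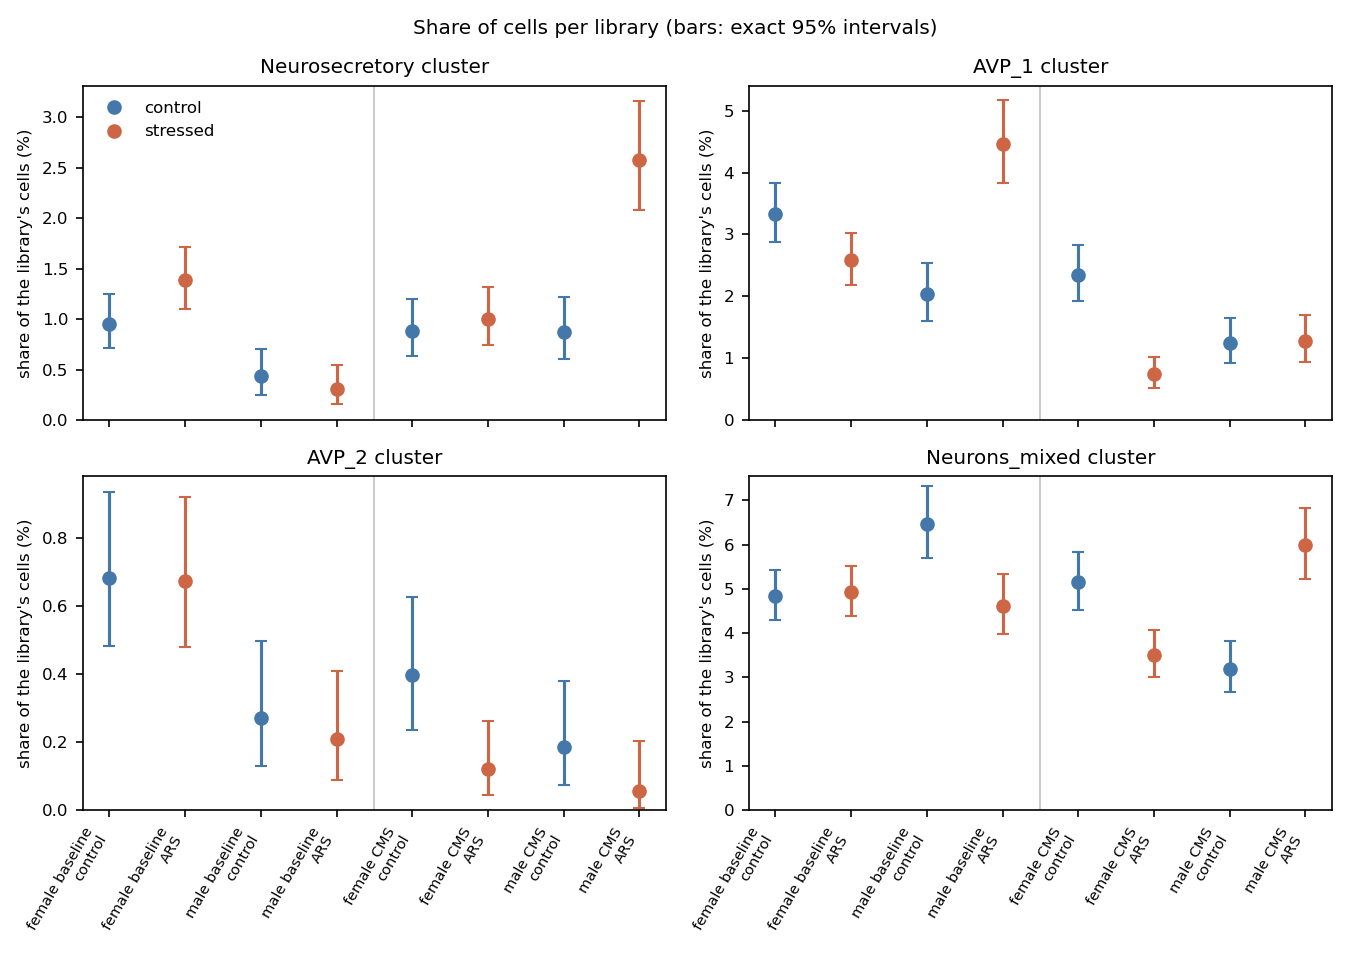
Share of each library's cells in the Neurosecretory cluster and in AVP_1, AVP_2 and Neurons_mixed, in percent, for the 8 libraries (control blue, stressed orange, a grey line between the cohorts). Bars are exact 95% intervals for counting error. The Neurosecretory share is highest in the male CMS ARS library (2.58%), where AVP_2 is lowest (0.0568%).

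Stressed libraries were set against controls to ask whether the share of these cells differed 5 h after restraint. Stress was restraint alone in the baseline pairs, but 21 days of chronic mild stress plus restraint in the CMS pairs. The contrast pools both and cannot tell them apart. The Neurosecretory share was 1.32% ± 0.951 (n = 4) in stressed and 0.786% ± 0.238 in control libraries, and it was higher in the stressed library of 3 of 4 pairs. The ratio was 1.45 in female baseline mice (95% interval for counting error 1.03 to 2.05), 1.14 in female CMS mice (0.751 to 1.72), 0.723 in male baseline mice (0.342 to 1.53) and 2.96 in male CMS mice (1.99 to 4.40). Among neurons the ratios were 1.59, 1.83, 0.848 and 1.76 in the same order, so the male CMS pair no longer had the largest. The male CMS ARS library held 1045 neurons in 3523 cells, against 667 in 3781 in the male CMS control library. The difference did not pass the edgeR quasi-likelihood test (log2 fold 0.68, SE 0.49, adjusted p = 0.953 over 33 clusters). In that comparison edgeR called 0% of clusters, and 0 of 33 had an unadjusted p under 0.05. DESeq2 called 0 as well, and so did limma on log odds. Leaving out the male CMS ARS library brought the log2 fold to 0.02 (edgeR adjusted p = 0.964): the size of the difference rests on it.

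Female and male libraries had nearly the same mean share, 1.06% ± 0.224 and 1.05% ± 1.05 (n = 4 each), but the males spread more widely. The female share was 2.20-fold and 4.42-fold that of the male library in the baseline control and baseline ARS pairs, 1.01-fold (counting interval 0.640 to 1.60) in the CMS control pair and lower in the CMS ARS pair (0.389-fold, counting interval 0.276 to 0.547). Among neurons it was 1.97-fold and 3.68-fold in the baseline pairs, 0.815-fold in the CMS control pair and 0.849-fold in the CMS ARS pair. The log2 fold was 0.30 (SE 0.51, edgeR adjusted p = 0.974). Here edgeR called 0% of clusters, with 4 of 33 at an unadjusted p under 0.05, while DESeq2 called 3 and limma 0. The log2 fold rose to 0.96 when the male CMS ARS library was left out (edgeR adjusted p = 0.197). It turned to -0.16 when the male baseline ARS library was left out (edgeR adjusted p = 0.941).

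Interaction terms compared the stress response of the sexes and of the cohorts, stress in the CMS cohort being chronic mild stress plus restraint. The female minus male difference in the log2 response was -0.58 (SE 1.0, edgeR adjusted p = 0.927), and the CMS minus baseline difference was 0.82 (SE 0.99, edgeR adjusted p = 0.981). Neither passed. EdgeR, DESeq2 and limma called 0% of clusters in both, with 1 of 33 at an unadjusted p under 0.05 by edgeR in each. Without the male CMS ARS library both values changed sign, to 1.42 and -0.56. The sign of the first also changed when neurons alone were the denominator (0.25).

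Between cohorts the Neurosecretory share was 1.34% ± 0.834 in CMS and 0.771% ± 0.494 in baseline libraries (log2 fold 0.77, SE 0.51, edgeR adjusted p = 0.391). Control libraries of both cohorts were labelled unstressed, whereas of the ARS libraries only the CMS ones had chronic mild stress as well. The cohorts also differed in age (11 against 10 weeks), so the cohort term cannot tell these apart. The CMS share was higher in both male pairs (2.01-fold in controls, 8.25-fold after restraint) and lower in both female pairs (0.927-fold and 0.725-fold). Among neurons the female ARS ratio turned to 1.07-fold, the female control ratio was 0.924-fold, and the male ratios were 2.23-fold in controls and 4.63-fold after restraint. EdgeR called 12.1% of clusters in this comparison. AVP_2 was among them, 2.51-fold lower in the CMS cohort (log2 fold -1.33, edgeR adjusted p = 0.0475), while AVP_1 was 2.26-fold lower and missed the threshold (log2 fold -1.18, edgeR adjusted p = 0.0966). The AVP_2 call did not hold in the fit blocked by matched pair (edgeR adjusted p = 0.067). It was also lost whichever single library was left out (edgeR adjusted p = 0.0555 to 0.157), with the direction kept. Of 15 alternative fits, 2 called AVP_2: DESeq2 (adjusted p = 0.0344) and limma on log odds (adjusted p = 0.0244). AVP_1 passed in 2 of 15, with DESeq2 (adjusted p = 0.0352) and without the female CMS control library (edgeR adjusted p = 0.00527). The number of clusters called fell from 4 to 1 with the block and to 1 or 2 without a library. Both AVP clusters had lower shares in the CMS library of 4 of 4 pairs. The Neurosecretory cluster did not share that direction in the male pairs.

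The balance between Neurosecretory and AVP cells differed greatly between libraries. Per 100 cells of AVP_1 and AVP_2 together there were 6.70 Neurosecretory cells in the male baseline ARS library, 18.8 in the male baseline control, 23.8 in the female baseline control and 42.6 in the female baseline ARS library. In the CMS cohort there were 32.3 in the female control, 61.1 in the male control, 116.3 in the female ARS and 193.6 in the male ARS library. The male baseline ARS library had the largest AVP share of the 8 libraries and the smallest Neurosecretory share. Both ratios above 100 were in the CMS ARS libraries, where AVP shares were the 2 lowest. This ratio was looked at after the shares were seen, has no test, and within a library fewer AVP cells raise it as much as more Neurosecretory cells do.

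The largest Neurosecretory shares came with many cells of low mitochondrial share. Cells under 2% mitochondrial UMIs numbered 53 of the 91 in the male CMS ARS library (58.2%) and 39 of the 80 in the female baseline ARS library (48.8%). They numbered 19 of 53 (35.8%) in the female baseline control library, 4 of 16 and 3 of 12 in the male baseline control and ARS libraries, and 1 of 40, 3 of 50 and 6 of 33 in the female CMS control, female CMS ARS and male CMS control libraries. As a share of all cells they made up 1.5% in the male CMS ARS library and 0.0221% to 0.675% in the others. In all other clusters together, the percentage of cells under 2% was 8.79% to 12.5% over libraries and 10.5% in the male CMS ARS library. The part of these cells in the differences of share was not tested beyond the fits that follow.

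**Figure D4:**
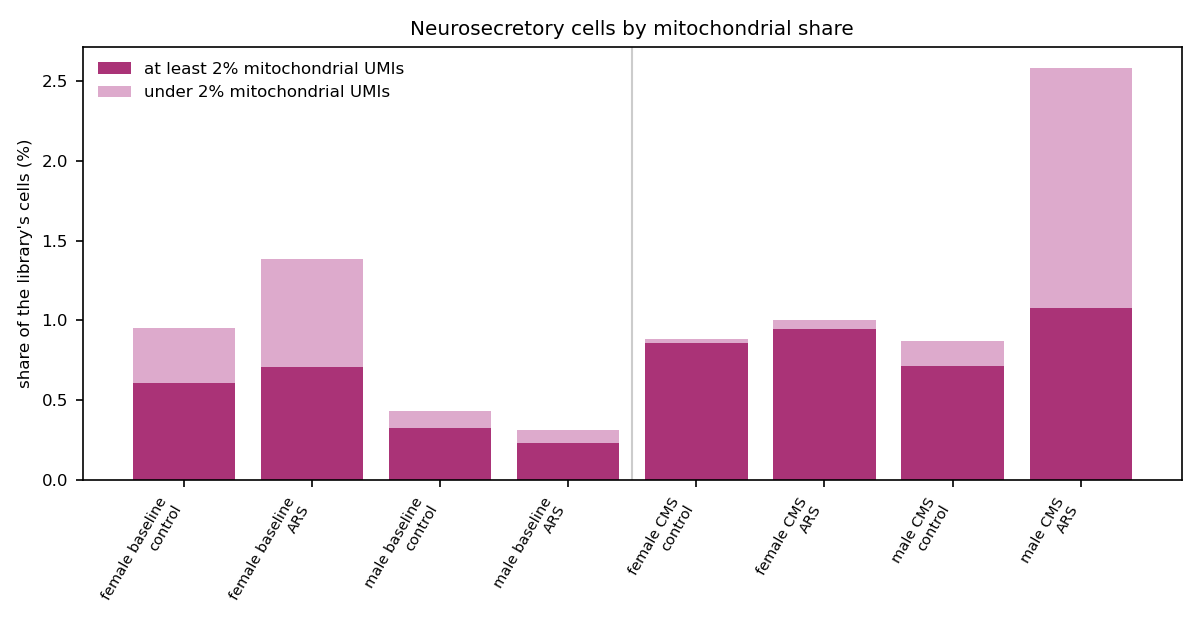
Share of each library's cells in the Neurosecretory cluster, in percent, divided into cells with at least 2% (dark) and under 2% (light) mitochondrial UMIs, with a grey line between the cohorts. The light part is 1.5% in the male CMS ARS library and at most 0.675% elsewhere, whereas the dark part runs from 0.235% to 1.08%.

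Neurosecretory cells with at least 2% mitochondrial UMIs made up 0.612% and 0.71% of the female baseline control and ARS libraries and 0.325% and 0.235% of the male ones. In the CMS cohort they made up 0.861% and 0.944% of the female control and ARS libraries and 0.714% and 1.08% of the male ones. The 4 CMS values lay above the 4 baseline values, the nearest pair being 0.714% and 0.71%. Counted in this way the CMS cohort had 0.899% ± 0.153 against 0.470% ± 0.226 (log2 fold 0.95, SE 0.30), which missed the threshold (edgeR adjusted p = 0.0582). For stressed against control the log2 fold was 0.21 (SE 0.30, edgeR adjusted p = 0.952). Cells under 2% alone gave log2 folds of 1.71 (SE 1.07, edgeR adjusted p = 0.962) for stressed against control and -0.17 (SE 1.16, edgeR adjusted p = 0.905) for the cohorts. The limit of 2% and these fits were chosen after the data were seen.

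Depth, genes per UMI and doublet score of Neurosecretory cells did not pass a test in any comparison. Depth was 1487 ± 581 UMIs in stressed and 1277 ± 161 in control libraries (log2 difference 0.14, SE 0.25, limma adjusted p = 0.999). It was 1360 ± 342 in female and 1404 ± 524 in male libraries (-0.01, SE 0.25, limma adjusted p = 0.981), and 1265 ± 389 in the CMS and 1499 ± 453 in the baseline cohort (-0.24, SE 0.25, limma adjusted p = 0.655). Genes per UMI were 0.667 ± 0.0565 in stressed and 0.659 ± 0.0283 in control libraries (limma adjusted p = 0.981). They were 0.674 ± 0.0327 in female and 0.652 ± 0.0514 in male libraries (limma adjusted p = 0.673), and 0.674 ± 0.0451 and 0.652 ± 0.0409 in the CMS and baseline cohorts (limma adjusted p = 0.901). For depth limma called 0% of 33 clusters in each comparison, with 0 (stress), 1 (sex) and 5 (cohort) at an unadjusted p under 0.05. For genes per UMI it also called 0%, with 0, 3 and 4 unadjusted.

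The mitochondrial share was 3.92% ± 2.92 in stressed and 4.65% ± 2.34 in control libraries (limma adjusted p = 0.809), and 4.79% ± 2.80 in female and 3.78% ± 2.41 in male libraries (limma adjusted p = 0.953). Limma called 0% of clusters in both, with 0 and 2 of 33 unadjusted. The mean doublet score was 0.306 ± 0.197 in stressed and 0.128 ± 0.125 in control libraries, a difference of 0.178 (SE 0.0785, limma adjusted p = 0.537). It was 0.154 ± 0.130 in female and 0.280 ± 0.219 in male libraries (limma adjusted p = 0.377), and 0.122 ± 0.102 in the CMS and 0.312 ± 0.203 in the baseline cohort (limma adjusted p = 0.182). For the doublet score limma called 0% of clusters in each comparison, with 3, 6 and 8 of 33 unadjusted. With 12 to 91 Neurosecretory cells per library, such means rest on few cells, and the doublet means on the 22 cells above 0.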

How the data were processed

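The deposited table of 35672 cells from 8 libraries was used. Per the submitters' processing notes, reads were handled with Cell Ranger 3.0.2 and 3.1.0 and Seurat 3.1.3 on mm10. Which library had which version, the cell filters, the clustering settings and the doublet tool were not given in the sources used here. UMIs and genes per cell were deposited as counts. The authors deposited the mitochondrial share as a fraction, which was multiplied by 100. Times the UMIs it was whole within 1e-06 in all 35672 cells. The authors also deposited 3 scores per cell (doublet, S, G2/M). Cells were assigned to libraries by the prefix of their names, and 0 were left over. No further doublets were removed.

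Cells per cluster and library were tested over all 33 clusters with edgeR 4.0.16 in R 4.3.3 (quasi-likelihood test, library size set to its number of cells, no trend), with sex, cohort and exposure as terms. Library medians (means for the doublet score; log2 for UMIs and genes per UMI) from at least 5 cells were tested with limma 3.58.1 in clusters with values in at least 6 libraries. Adjustment was over clusters (Benjamini-Hochberg, threshold 0.05). DESeq2 1.42.0 was an alternative. Tests were first run on simulated data. Exact intervals used scipy 1.17.1 and figures matplotlib 3.10.9. Members, measures and comparisons were chosen with earlier results of these data known. Named for comparison are 3 neuronal clusters, AVP_1, AVP_2 and Neurons_mixed. Also named are those next to the Neurosecretory cluster in an order, and the ends of that order. Others were named after their values were seen.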

Additional observations from a re-analysis of the deposited data

Results flagged for a closer look

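Of 72 groups of 4 libraries looked at over 12 measures of the Neurosecretory cluster, 4 held a library far from the other 3, where chance alone marks about 1 in 20 groups; the groups and measures overlap. The male CMS ARS library, at 2.58% of cells, stood apart among CMS libraries, the next being 1.0%. Among neurons it was at 8.71% and the next CMS library at 7.40%. The male baseline control library, at 0.433%, stood apart below the other controls, the next being 0.873%. For cells under 2% mitochondrial UMIs, the male CMS ARS library, at 1.5%, stood apart among both the male and the CMS libraries, the next being 0.159% in each.

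Over the 12 measures, bar the share of all cells, the signs of stressed minus control were compared by sex and by cohort. Only the mean G2/M score moved in opposite directions by sex, and with many looks such a split can arise by chance. The stressed minus control difference was -0.00440 in female baseline and -0.0289 in female CMS mice, against 0.0130 in male baseline and 0.00689 in male CMS mice. The difference between the sexes was not tested. These means rest on 12 to 91 cells per library, and single cells of the cluster scored up to 0.983 (90th percentile 0.0589).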

How the results depend on the processing

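For 17 tested values of the Neurosecretory cluster, 230 alternative fits were run: 206 kept the direction and the side of the threshold, 23 changed sign with no call, and 1 gained a call. The call gained was for the mitochondrial share between cohorts without the male CMS ARS library (4.49 points). Leaving out single libraries gave ranges of -0.16 to 0.96 (log2) for the share by sex, -1.58 to 1.42 for the sex by stress and -0.56 to 2.25 for the cohort by stress interaction. The ranges were -0.11 to 0.41 (log2) for depth by stress and -0.26 to 0.26 by sex, and -0.0475 to 0.0718 (log2) for genes per UMI by stress and -0.0148 to 0.105 by cohort. For mitochondrial points they were -1.81 to 0.969 by stress, -0.683 to 2.01 by sex and 1.71 to 4.49 by cohort. Other sign changes came with neurons as the denominator (sex by stress 0.247), depth relative to the library (by sex 0.132), and, among alternatives added after the data were seen, cells under 2% mitochondrial UMIs (share by sex -0.57, by cohort -0.17). The cause of these changes was not tested. Means of cluster properties moved by less than 1 SD with cells pooled or limited to the depth range of the Neurosecretory cells, a range in which AVP_1 gave no value. Clusters called between cohorts numbered 4 in shares (1 with clusters of at least 80 cells, 1 with TMM factors, 0 among neurons) and 2 in mitochondrial share (0 to 3 over alternatives). For shares by sex the number was 0 (3 with DESeq2). Libraries carry no replicate numbers, so pairs were matched by the other 2 factors. With the matched pair as a block no Neurosecretory call changed (share by stress 0.56, by sex 0.38, by cohort 0.73, log2), while the clusters called between cohorts in shares fell from 4 to 1. The 12 to 91 cells per library limit each value.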
